A study of Mus musculus with 14 samples.

Results

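The 40 genes described here encode the release machinery of the synaptic vesicle, measured in mouse brainstem by RNA sequencing. They were chosen by name from the 55421 mouse genes of a deposited count table, for what their proteins do and with no threshold on their values, and all 40 were found in it. Earlier results of these data were known when the genes were chosen. By role they fell into 11 vesicle proteins (Syp, Syn1, Syn2, Syn3, Sv2a, Sv2b, Sv2c, Rab3a, Rab3b, Rab3c and Rab3d), 4 SNARE proteins (Snap25, Stx1a, Vamp1 and Vamp2), 3 complexins (Cplx1, Cplx2 and Cplx3), 9 active zone proteins (Rims1, Rims2, Rims3, Rims4, Unc13a, Unc13b, Unc13c, Bsn and Pclo) and 13 synaptotagmins (Syt1 to Syt7, Syt9 to Syt13, and Syt17).

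At a nerve terminal, vesicles filled with transmitter are held in clusters by synapsins, brought to the active zone through Rab3 and RIM proteins, and made ready for fusion by Munc13 proteins. A SNARE complex of the vesicle protein synaptobrevin (the VAMPs) and the plasma membrane proteins syntaxin and SNAP-25 drives fusion, complexins hold and then promote it, and synaptotagmins sense the calcium that triggers it. The locus coeruleus (LC) is the main source of forebrain noradrenaline, and its neurons release from scattered swellings of long axons as well as from cell bodies and dendrites.

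The mice were TH-Cre;Slc6a2-eGFP/Rpl10a on a C57Bl/6 background, aged 2 to 3 months at infusion, and all of them carried both transgenes. The noradrenaline transporter gene Slc6a2 drives a ribosomal protein fused to green fluorescent protein, so that ribosomes of noradrenergic cells can be precipitated with the RNA bound to them, and Cre stands under the tyrosine hydroxylase promoter. The LC received either P364S mutant human tau (4 animals, B, C, L and M) or EYFP, a fluorescent control protein (3 animals, H, I and K). From every animal there were 2 libraries, 1 of the precipitated RNA (IP) and 1 of the brainstem homogenate before precipitation (pre-IP), so each fraction holds 4 tau and 3 EYFP libraries. The pre-IP holds RNA of every cell type in the dissected tissue, and in such bulk samples fewer cells of a type and less RNA per cell cannot be told apart.

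Libraries held 41843489 to 65664551 counts, and the members took 1.58% to 1.88% of them. The lowest count of any member in any library was 22, above a floor of 3 counts (0.0457 to 0.0717 CPM, where CPM divides a count by the library total and multiplies by 1e+06). RNA integrity numbers were 7.7 to 9 except for the EYFP IP of animal I, at 4.2. The IP samples held 0.1 to 0.8 ng/µl RNA in tau animals and 0.7 to 2.8 ng/µl in EYFP animals. The human tau construct had 3527 to 47177 counts in the tau libraries, 2 to 18 in animals H and I, and 408 and 398 in animal K, an EYFP animal. Animal M, labelled female, had 674 and 1153 counts on Y-linked genes. Every comparison between the fractions or between the treatments was therefore repeated without each animal in turn. The labelled cell type was present in the IP: all 12 listed noradrenergic marker genes were higher in IP than in pre-IP, and their median log2 change was 2.32. That enrichment was uneven. The mean log2 IP over pre-IP of the 12 markers was 4.44 in B, 3.56 in C, 3.52 in L and 1.74 in M, against 0.68 in H, 0.95 in I and 0.69 in K.

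The sequences just upstream of the start sites of 4 members are shown because these genes stood at the ends of the IP against pre-IP comparison. They are the 2 called members with the largest changes in each direction that had exactly 1 entry in the RefSeq promoter table (GRCm38.p6), which held 29 of the 40 members. Each runs 5′ to 3′ on the gene's own strand over the 250 bases before the start given in that table. The Rab3b and Syt9 windows end inside the deposited gene models, which begin at bases 108879063 and 107370728. Bases just after the start matched GENCODE transcripts for Rab3b and Syt9, but not for Unc13c or Rims3. Capitals mark matches on either strand to TATAAA (the TATA box), GGGCGG (the GC box, or its reverse complement CCGCCC) and CCAAT (or ATTGG), and neighbouring matches run together. The Rab3b window lies at chr4:108878820-108879069 on the forward strand, the Unc13c window at chr9:73969038-73969287 on the reverse strand, the Rims3 window at chr4:120854549-120854798 on the forward strand and the Syt9 window at chr7:107370540-107370789 on the forward strand.
Rab3b: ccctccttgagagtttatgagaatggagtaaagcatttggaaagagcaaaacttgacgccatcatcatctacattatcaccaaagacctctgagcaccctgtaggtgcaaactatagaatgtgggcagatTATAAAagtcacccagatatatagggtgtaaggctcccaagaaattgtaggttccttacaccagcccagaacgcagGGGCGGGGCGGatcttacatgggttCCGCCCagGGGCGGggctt
Unc13c: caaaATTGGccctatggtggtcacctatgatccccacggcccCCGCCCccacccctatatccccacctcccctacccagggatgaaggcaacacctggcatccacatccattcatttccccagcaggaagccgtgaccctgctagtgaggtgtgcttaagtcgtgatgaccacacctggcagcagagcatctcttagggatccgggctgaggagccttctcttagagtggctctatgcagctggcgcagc
Rims3: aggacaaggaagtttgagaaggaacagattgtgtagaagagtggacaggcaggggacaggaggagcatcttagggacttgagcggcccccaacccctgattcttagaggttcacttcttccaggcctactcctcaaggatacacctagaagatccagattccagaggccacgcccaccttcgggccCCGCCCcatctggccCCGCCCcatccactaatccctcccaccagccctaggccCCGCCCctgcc
Syt9: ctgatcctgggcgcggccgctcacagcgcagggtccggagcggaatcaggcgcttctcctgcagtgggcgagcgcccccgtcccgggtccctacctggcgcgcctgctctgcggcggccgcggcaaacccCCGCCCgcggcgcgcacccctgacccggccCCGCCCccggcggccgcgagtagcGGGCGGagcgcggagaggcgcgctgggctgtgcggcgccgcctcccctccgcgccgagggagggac
Rab3b, which was higher in IP, had a TATAAA at base -120 from the start and 4 GC boxes, the farthest at base -44. Unc13c, also higher in IP, had 1 GC box and 1 CCAAT match, at bases -208 and -246. Rims3 and Syt9, which were lower in IP, had 3 GC boxes each. In the 250 bases before the start, 26 of the 38 member windows held a GC box, against 32.7% of all 32851 windows in the table. A TATAAA was in 3 of them, against 12.4%. CCAAT was found in 10 of the 38, against 33.9% of all windows, and the cyclic AMP response element TGACGTCA in 1, against 1.55%. These matches describe the letters of the windows, and no binding was measured here.

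Levels were first compared between the genes as CPM per kilobase of exon in the pre-IP, where all 7 animals enter. They spanned more than 3 orders of magnitude. Cplx1, a complexin, stood first at 1596 ± 103 CPM per kb (SD, n = 7). Next came the vesicle GTPase Rab3a at 713 ± 75.3, the synaptobrevin Vamp2 at 636 ± 86.4, the plasma membrane SNARE Snap25 at 470 ± 83.1 and the second synaptobrevin Vamp1 at 217 ± 42.1. Rab3a and Vamp2 lay within 1 SD of each other. The other plasma membrane SNARE, Stx1a, was at 21.6 ± 3.1, far below Snap25. The large scaffolds of the active zone stood near the foot of the order, with Bsn at 1.9 ± 0.357 and Pclo at 0.503 ± 0.139, and Unc13b was last at 0.246 ± 0.0693. Among the calcium sensors for fast release, Syt2 was at 33.6 ± 13.4 and Syt1 at 26.6 ± 7.06, which overlap, and Syt9 was at 14.4 ± 4.96. Syt11 was the most abundant synaptotagmin, at 118 ± 17.3.

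**Figure D1:**
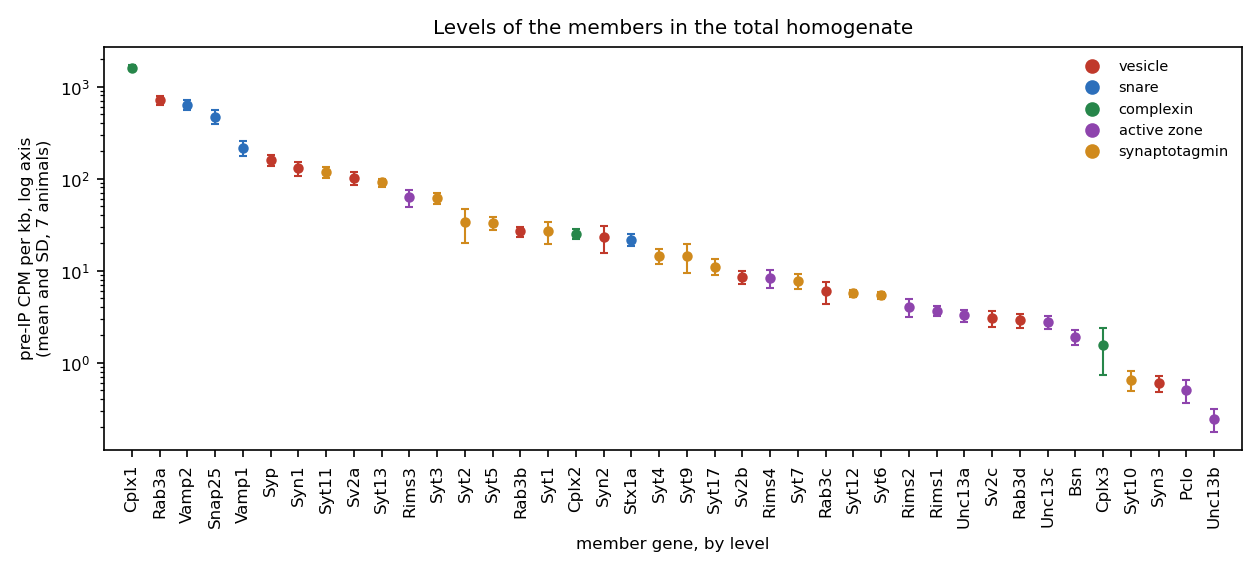
Pre-IP level of each of the 40 members in CPM per kilobase of exon, on a log axis, ordered from highest to lowest and coloured by role. Points are means and bars are SD over 7 animals, and the members run from Cplx1 at 1596 to Unc13b at 0.246.

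IP was then compared with pre-IP over all 14 libraries. This asks which release genes took more or less of the precipitated RNA than of the homogenate. Of the 40 members, 7 were higher in IP, 13 were lower and 20 did not pass (edgeR quasi-likelihood test, Benjamini-Hochberg adjusted p under 0.05 over 20495 genes). Of all genes tested, 14.5% were higher and 13.6% were lower. The share called higher was thus close to the background, while the share called lower was above it, and the list as a whole was not tested. The members' median log2 change was 0.07, against -0.0022 for all genes. Of the 6 listed astrocyte markers, Slc1a2 rose as well (0.97, adjusted p = 0.000209), 1 fell and 4 did not pass. No marker was called higher in the glutamatergic, GABA and glycine, serotonergic, cholinergic, cerebellar, oligodendrocyte, microglial or vascular lists. In these, 1 of 3 glutamatergic, 2 of 6 oligodendrocyte, 3 of 6 microglial and 1 of 5 vascular markers fell. The share of RNA from other cells in the IP was not measured, so a change here is not assigned to noradrenergic cells. The 7 that rose were Syt4, Rab3b, Unc13c, Pclo, Rab3c, Rims1 and Sv2c, and the 13 that fell were Rims3, Syt9, Syt2, Syt6, Unc13a, Vamp1, Syn1, Syt13, Cplx1, Syt12, Sv2a, Syt3 and Sv2b. The 7 IP libraries lay wholly above the 7 pre-IP libraries for 3 members (Rims1, Unc13c and Syt4), where 3.42% of all genes did so, and wholly below them for 5 (Syn1, Cplx1, Rims3, Syt6 and Syt13), where 5.31% did.

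**Figure D2:**
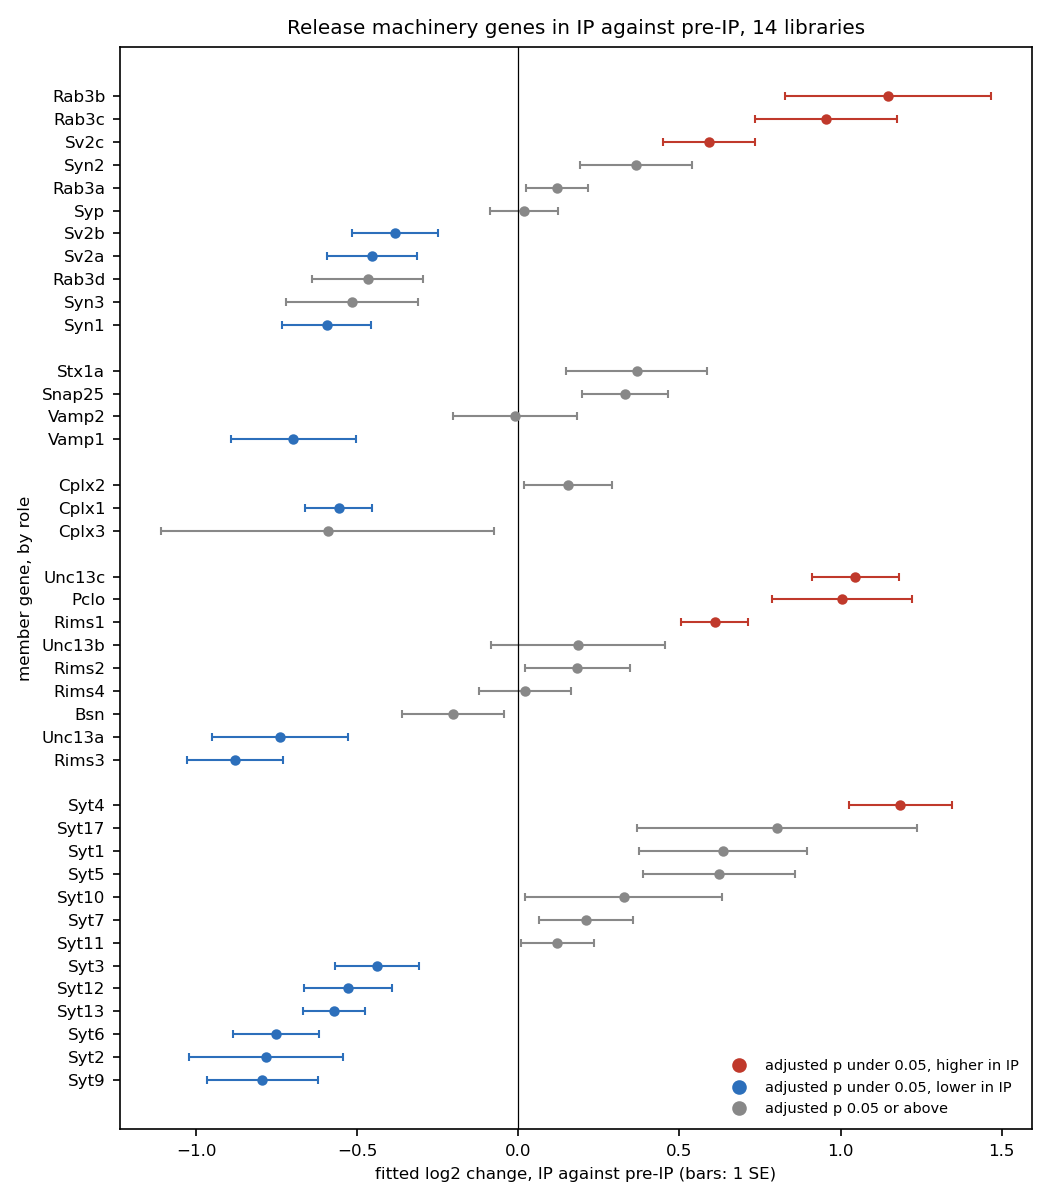
Fitted log2 change of each member in IP against pre-IP, grouped by role, with bars of 1 SE, over 14 libraries. The 7 members in red rose and the 13 in blue fell at an adjusted p under 0.05, and the 20 in grey did not pass. Every role holds genes on both sides of 0.

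Among the vesicle proteins, 3 of 11 rose, 3 fell and 5 did not pass, and relatives within a family went opposite ways. Rab3b and Rab3c are close relatives of Rab3a, the main Rab GTPase of synaptic vesicles. Rab3c ran from 44.5 to 93 CPM in the 7 pre-IP libraries (median 76.7) and from 74.1 to 175 in the 7 IP libraries (median 149). It was higher in IP than in the paired pre-IP in each of the 7 animals, and its log2 change was 0.96 (SE 0.22, adjusted p = 0.00419). Rab3b ran from 70.9 to 108 CPM in pre-IP (median 94.5) and from 94.1 to 538 in IP (median 131), with a log2 change of 1.15 (SE 0.32, adjusted p = 0.0131). That call was lost without animal C (log2 change 1.01, adjusted p = 0.0552) and without animal L (1.07, adjusted p = 0.0535). Rab3a itself was level, at 1236 to 1720 CPM in pre-IP (median 1616) and 1579 to 1794 in IP (median 1664), with a log2 change of 0.12 (SE 0.10, adjusted p = 0.392). Rab3d, the least abundant of the family, had a log2 change of -0.47 that did not pass (adjusted p = 0.0527). It did pass with the animal as a block (-0.49, adjusted p = 0.0468) and without animal B (-0.61, adjusted p = 0.0116). The DESeq2 Wald test (adjusted p = 0.0366) and limma voom with sample quality weights (0.0133) also called it.

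Syn1, which ties vesicles into the reserve cluster, ran from 337 to 532 CPM in pre-IP (median 409) and from 209 to 335 in IP (median 268), and the fractions did not overlap. Its log2 change was -0.59 (SE 0.14, adjusted p = 0.00448), and it was lower in IP in 7 of 7 animals. Syn2 had a log2 change of 0.36 and did not pass (adjusted p = 0.133), except without animal K (0.50, adjusted p = 0.0419). Syn3 had a change of -0.52 that did not pass (adjusted p = 0.0722), except without animal B (-0.69, adjusted p = 0.0146), by the DESeq2 Wald test (0.0494) and by limma voom (0.0302). Syn3 shares 14.1% of its exon bases with Timp3 on the opposite strand. The sources used here do not say whether strand was used in counting, so reads of Syn3 and Timp3 cannot be told apart there. Unc13a shares 3.92% of its exon bases with Colgalt1 and Syn2 shares 1.28% with Timp4 in the same way, and the opposite-strand partners of Rab3b, Syp, Syt4, Syt6 and Syt12 had 21 to 318 reads over all libraries. The SV2 glycoproteins also divided. Sv2c was higher in IP in 7 of 7 animals, with a log2 change of 0.59 (SE 0.14, adjusted p = 0.00568), while Sv2a, the most abundant of the 3 and the target of the antiseizure drug levetiracetam, was lower (-0.46, SE 0.14, adjusted p = 0.0223), as was Sv2b (-0.38, SE 0.13, adjusted p = 0.0411). Both of the lower calls were thin. Sv2a did not pass without C, L, M or K (adjusted p = 0.0601, 0.0704, 0.07 and 0.057), and Sv2b did not without B, C, L, M or K (0.0955, 0.12, 0.0526, 0.121 and 0.0601). Syp, synaptophysin, an abundant membrane protein of the vesicle, ran from 685 to 1005 CPM in pre-IP (median 780) and from 758 to 901 in IP (median 813). It had a log2 change of 0.02 (SE 0.11, adjusted p = 0.924), and the sign was not fixed, since it turned to -0.08 without animal H.

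Of the 4 SNARE genes, only Vamp1 passed, and it fell. Vamp1 ran from 1805 to 2914 CPM in pre-IP (median 2011) and from 620 to 1882 in IP (median 1428), and it was lower in IP in 7 of 7 animals (log2 change -0.70, SE 0.19, adjusted p = 0.0128). Without animal L its adjusted p was 0.0505 at a change of -0.66. Vamp2 ran from 1915 to 2807 CPM in pre-IP (median 2576) and from 1589 to 3991 in IP (median 2064), with a log2 change of -0.01 (SE 0.19, adjusted p = 0.976), and it changed sign without M, I or K (0.0027, 0.09 and 0.03). Snap25 ran from 2204 to 3907 CPM in pre-IP (median 3224) and from 3106 to 5465 in IP (median 3782). It did not pass (log2 change 0.33, SE 0.13, adjusted p = 0.0738), except with the animal as a block (0.34, adjusted p = 0.0334) and without animal B (0.41, adjusted p = 0.0293). Stx1a ran from 44.5 to 64.9 CPM in pre-IP (median 61.5) and from 37.7 to 122 in IP (median 61.8), with a change of 0.37 that did not pass (SE 0.22, adjusted p = 0.232).

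Of the complexins, Cplx1 fell. It ran from 3286 to 3805 CPM in pre-IP (median 3477) and from 1674 to 2922 in IP (median 2256), so the fractions did not overlap, and the log2 change was -0.56 (SE 0.10, adjusted p = 0.00108). Cplx2 ran from 105 to 146 CPM in pre-IP (median 120) and from 73 to 184 in IP (median 146), and did not pass (0.15, SE 0.14, adjusted p = 0.442). Cplx3, known mainly from ribbon synapses, was scarce, at 0.73 to 7.22 CPM in pre-IP, and its change of -0.59 had an SE of 0.52 (adjusted p = 0.431).

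Of the active zone genes, 3 of 9 rose, 2 fell and 4 did not pass. Unc13c, a Munc13 priming factor, ran from 19.9 to 30.4 CPM in pre-IP (median 23.2) and from 38.1 to 73.4 in IP (median 44.1), with no overlap and a log2 change of 1.05 (SE 0.14, adjusted p = 8.58e-05). Its relative Unc13a went the other way, from 29.6 to 48.9 CPM in pre-IP (median 42.1) to 6.94 to 39.5 in IP (median 25.4), a change of -0.74 (SE 0.21, adjusted p = 0.0152) that did not pass without animal C (-0.71, adjusted p = 0.0573). Unc13b, the member with the lowest pre-IP level per kb, had a change of 0.19 (adjusted p = 0.656). Rims1, a large RIM that ties vesicles and calcium channels to the active zone, ran from 23 to 33 CPM in pre-IP (median 26) and from 34.1 to 48.8 in IP (median 37.7), with a log2 change of 0.61 (SE 0.10, adjusted p = 0.000533). Rims3, a short RIM that lacks the Rab3-binding part of Rims1, ran from 367 to 612 CPM in pre-IP (median 503) and from 170 to 325 in IP (median 265), with a change of -0.88 (SE 0.15, adjusted p = 0.000509). The fractions did not overlap for either RIM gene. Rims2 and Rims4 did not pass, with changes of 0.18 and 0.02.

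Pclo and Bsn, the related giant scaffolds Piccolo and Bassoon, gave different values. Pclo ran from 7.03 to 14.4 CPM in pre-IP (median 13) and from 10.3 to 39 in IP (median 21.4). Its log2 change was 1.00 (SE 0.22, adjusted p = 0.00273), and it was higher in 6 of 7 animals, the exception being B at -0.38. Bsn ran from 23 to 39.7 CPM in pre-IP (median 31.1) and from 17.7 to 35.4 in IP (median 23.3), with a change of -0.20 that did not pass (SE 0.16, adjusted p = 0.378). No test of the difference between the pair was run.

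Of the 13 synaptotagmins, 1 rose, 6 fell and 6 did not pass. Syt4, a form that binds calcium weakly if at all and is found on dense-core vesicles, ran from 41.6 to 69.7 CPM in pre-IP (median 58) and from 92.5 to 166 in IP (median 115). Its log2 change was 1.19 (SE 0.16, adjusted p = 0.000106), with no overlap between fractions. The fast calcium sensors Syt2 and Syt9 fell. Syt2 ran from 168 to 415 CPM in pre-IP (median 206) and from 81.7 to 217 in IP (median 153), with a change of -0.78 (SE 0.24, adjusted p = 0.0218). The Syt2 call was lost without animal C (adjusted p = 0.0501) and without animal L (0.065). Syt9 ran from 28.4 to 85.1 CPM in pre-IP (median 58.2) and from 22.6 to 43.6 in IP (median 31.5), with a change of -0.79 (SE 0.17, adjusted p = 0.00278), and animal M alone was higher in IP. Syt6 ran from 27.8 to 35.5 CPM in pre-IP (median 32) and from 10 to 24.5 in IP (median 19.6), with no overlap and a change of -0.75 (SE 0.13, adjusted p = 0.000725). Syt13 and Syt12, forms not known to act as calcium sensors, and Syt3 fell by 0.57, 0.53 and 0.44 on the log2 scale (adjusted p = 0.000518, 0.00828 and 0.0196), and Syt3 did not pass without L (adjusted p = 0.0639) or M (0.0541).

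Syt1, the main calcium sensor of fast release in the forebrain, ran from 151 to 285 CPM in pre-IP (median 244) and from 174 to 592 in IP (median 301). It was higher in IP in each of the 7 animals but did not pass (log2 change 0.64, SE 0.26, adjusted p = 0.0799). Syt1 passed under 4 of the 15 other settings, among them the animal as a block (0.57, adjusted p = 0.0205). The others were the DESeq2 Wald test (adjusted p = 0.0366), no filter on low counts (0.0317) and the library-number range as a covariate (0.0143). Syt5, Syt17, Syt10, Syt7 (a slow calcium sensor) and Syt11 had changes of 0.62, 0.80, 0.33, 0.21 and 0.12 and did not pass. Syt5 passed under 5 of the 15 other settings, with adjusted p = 0.0271 by the DESeq2 Wald test, 0.0215 with no filter on low counts, 0.0481 with the library-number range as a covariate, 0.0399 without animal M and 0.0467 without animal K. Syt17 passed in tau animals alone (1.74, adjusted p = 0.0271). With the animal as a block, 9 members were higher and 14 lower, where 14.2% of all genes were higher and 15.4% lower. These members included all 20 called without it. Without animal L the counts were 6 higher and 8 lower, given here without the shares of all genes. Under all 15 other settings tried, 5 members (Rims1, Rims3, Unc13c, Syt4 and Syt9) were called.

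**Figure D3:**
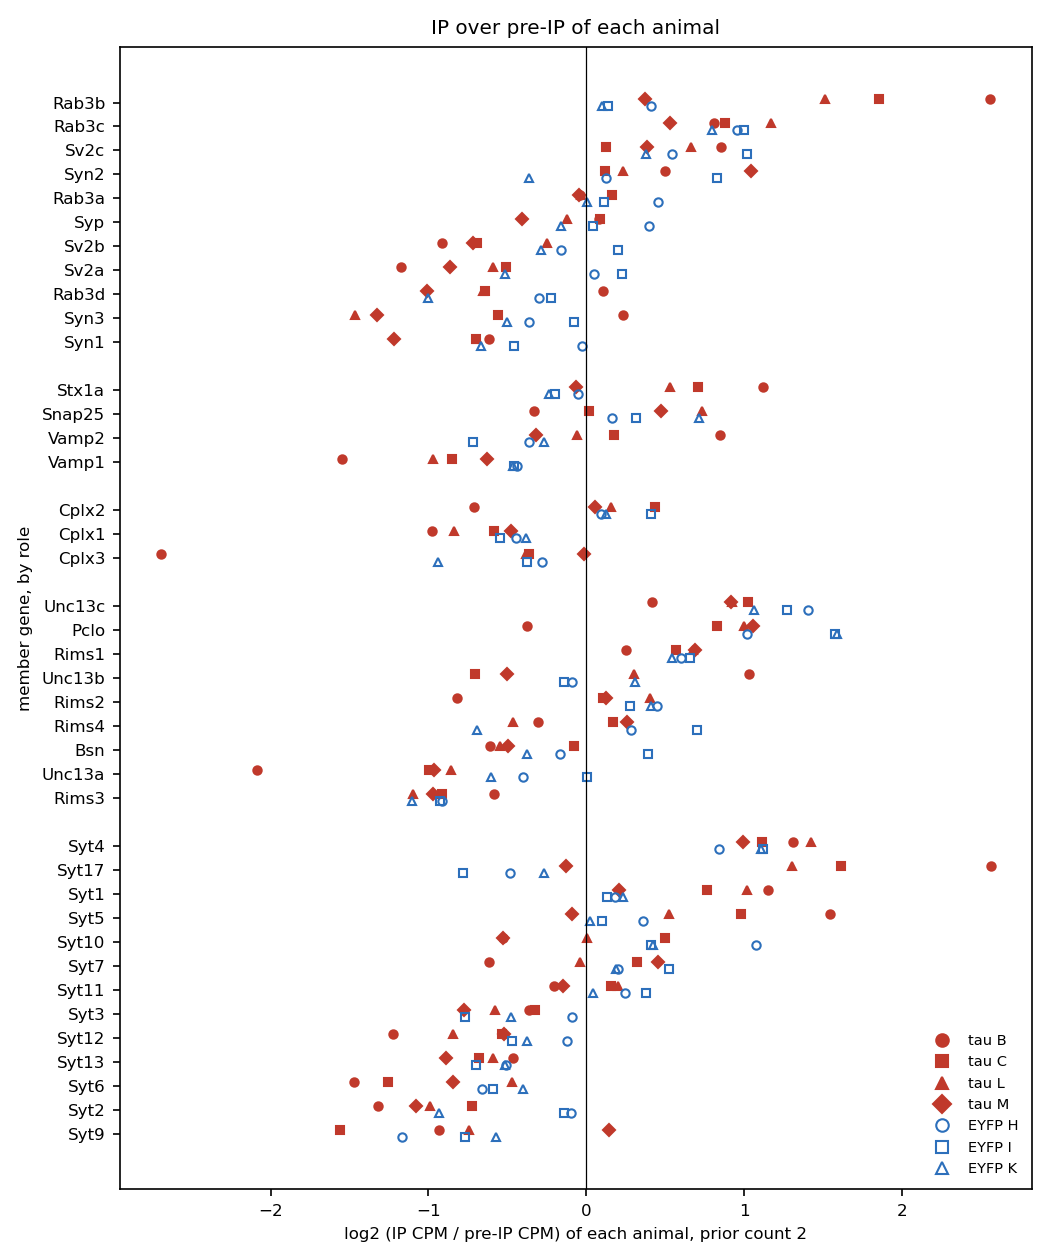
Log2 of IP CPM over pre-IP CPM in each animal for each member, with a prior count of 2, in the order of the fitted changes within each role. Filled red symbols are tau animals and open blue symbols are EYFP animals. Syt4 lies between 0.84 and 1.43 in every animal, while Rab3b and Syt17 run up to 2.56 in tau animal B and are at most 0.41 in the EYFP animals.

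Set out by animal, the members that rose or fell did so in unlike ways. Syt4 was higher in IP by 0.84 to 1.43 on the log2 scale in all 7 animals, Unc13c by 0.42 to 1.40, Rab3c by 0.53 to 1.17 and Rims1 by 0.25 to 0.69. The tau and EYFP animals overlapped for Syt4, Rab3c and Rims1, while for Unc13c the tau animals, at 0.42 to 1.03, lay below the EYFP animals, at 1.07 to 1.40, a difference that did not pass as an interaction (-0.34, adjusted p = 0.867). Rab3b followed another order, at 2.56 in B, 1.86 in C, 1.51 in L and 0.37 in M, against 0.41 in H, 0.14 in I and 0.10 in K. Syt17, also called B/K protein, did likewise, at 2.56 in B, 1.61 in C, 1.31 in L and -0.13 in M, against -0.48 in H, -0.78 in I and -0.27 in K. B, C and L are the animals in which the noradrenergic markers were most enriched. Stx1a (1.12, 0.71 and 0.53), Syt5 (1.54, 0.98 and 0.52) and Syt1 (1.15, 0.77 and 1.02) were also highest in B, C and L, while the other 4 animals ran from -0.24 to -0.05 for Stx1a, from -0.09 to 0.36 for Syt5 and from 0.13 to 0.23 for Syt1. Vamp1 showed the reverse, at -1.55 in B, -0.85 in C and -0.97 in L. It was at -0.63 in M and from -0.46 to -0.44 in the EYFP animals. Unc13a was also lowest in B (-2.09), but M (-0.963) lay below L (-0.855). For Unc13a the tau animals, M among them, lay below the EYFP animals, at -0.60 to 0.0046. The order of 7 animals is a description here, and what sets it was not tested.

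**Figure D4:**
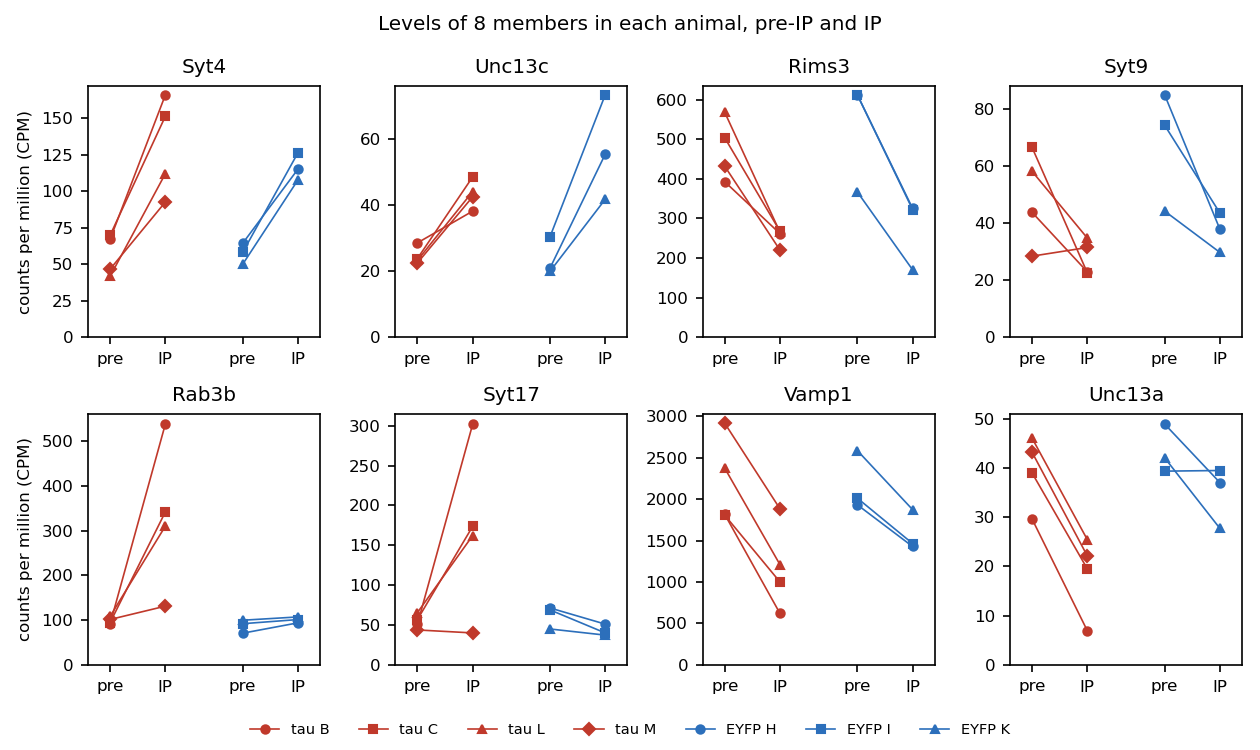
Level of 8 members in CPM in the pre-IP and IP of each animal, joined by lines, with tau animals in red on the left of each panel and EYFP animals in blue on the right. Syt4, Unc13c and Rims3 move the same way in all 7 animals, whereas Rab3b and Syt17 climb in tau animals B, C and L and do not climb so in M or in the EYFP animals, where Syt17 is lower in IP.

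The 2 treatments were also fitted alone. In tau animals, 6 members were higher and 11 lower, where 10.4% of all genes were higher and 10.3% lower. In EYFP animals, 4 members were higher (Unc13c at 1.25, Pclo at 1.38, Syt4 at 1.02 and Rims1 at 0.60) and 2 lower (Rims3 at -0.96 and Syt9 at -0.87), where 3.96% of genes were higher and 2.41% lower. Rab3b had a log2 change of 1.83 in tau animals and 0.19 in EYFP animals, and Syt17 had 1.74 and -0.525. The test of that difference is the interaction given further on.

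Shares within families put the paralogues on one scale, as the percent of the family's summed CPM per kb. Rab3b made up 3.61 ± 0.333% of the Rab3 family in tau pre-IP (SD, n = 4) and 3.52 ± 0.0751% in EYFP pre-IP (n = 3). In tau IP it made up 16.7% in B, 10.6% in C, 10.8% in L and 4.82% in M, all above the 3.32%, 3.63% and 3.74% of the EYFP IP. Rab3a remained the chief form in every library, at 81.6% to 95.7%. Vamp2 made up 76.6%, 79.2%, 74.8% and 66.2% of the VAMP pair in the pre-IP of B, C, L and M, and 94.5%, 88.6%, 84.9% and 70.8% in their IP. In the EYFP animals H, I and K it went from 78.6%, 78.8% and 66.4% in pre-IP to 79.4%, 75.7% and 69.4% in IP, so that it rose in 4 of 4 tau animals and in 2 of 3 EYFP animals. Unc13c rose from 45.6 ± 6.94% of the Munc13 family in tau pre-IP to 74.5 ± 5.22% in tau IP, and from 41.9 ± 7.76% to 67.7 ± 3.11% in EYFP animals, and Unc13a fell from 50.7 ± 7.32% to 21.4 ± 7.88% and from 53.9 ± 7.14% to 29.3 ± 2.24%. The pre-IP shares of Unc13a and Unc13c lay within 1 SD of each other in tau animals, and the IP shares did not in either treatment. Syt4 rose from 3.46 ± 0.939% to 7.67 ± 0.941% of the synaptotagmins in tau animals and from 3.46 ± 0.496% to 7.5 ± 0.839% in EYFP animals. These shares are sums of the levels tested above and carry no test of their own.

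**Figure D5:**
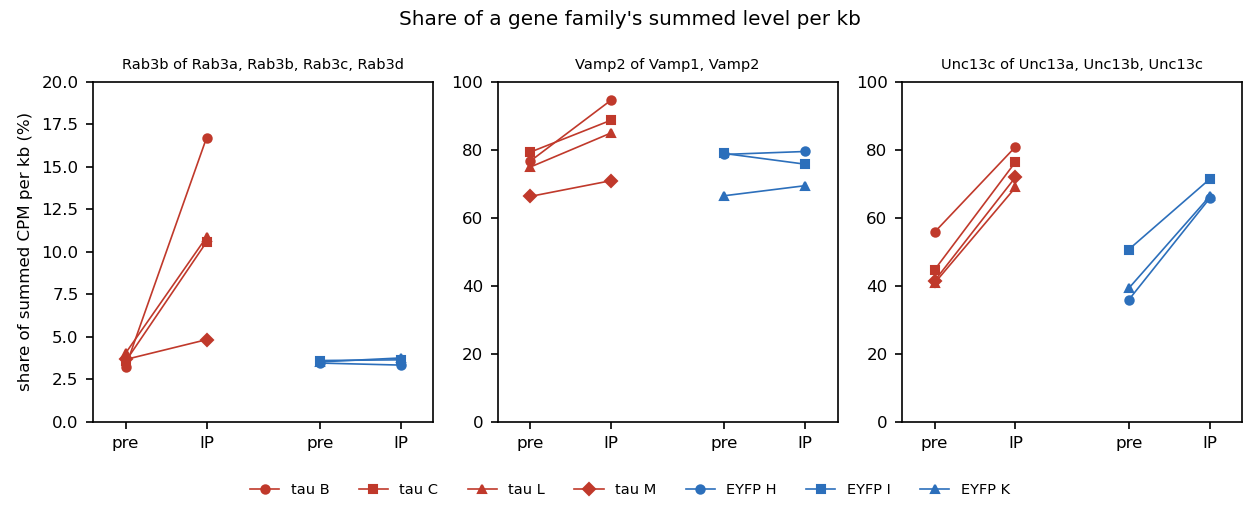
Share of a family's summed CPM per kb taken by Rab3b, Vamp2 and Unc13c in the pre-IP and IP of each animal, tau in red and EYFP in blue, with the Rab3b axis ending at 20% and the others at 100%. Rab3b reaches 16.7% in the IP of tau animal B and stays at 3.32% to 3.74% in the EYFP IP, while Unc13c rises in all 7 animals.

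Tau IP was compared with EYFP IP, which asks whether the precipitated RNA differs with mutant tau in the LC. No member passed (0 of 40), and 0% of 19472 genes did, by edgeR with Benjamini-Hochberg adjustment. At an unadjusted p under 0.05 there were 5 members higher in tau IP, where 7.93% of all genes were, and 4 lower, where 4.06% were, and the tau and EYFP libraries did not overlap for 5, where 15.6% of genes did not. Rab3b had the smallest p. Its IP levels were 538, 342, 310 and 131 CPM in B, C, L and M, all above the 94.1, 101 and 107 CPM of H, I and K. The log2 difference was 1.85 (SE 0.42, unadjusted p = 0.0014, adjusted p = 0.318). Syt17 stood at 302, 174, 162 and 40.1 CPM in the tau IP and at 51.2, 40.1 and 37.4 CPM in the EYFP IP, so that M lay among the EYFP animals. Its difference was 2.13 (SE 0.56, unadjusted p = 0.00358, adjusted p = 0.318).

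Stx1a stood at 122, 106, 88.9 and 46.4 CPM in the IP of B, C, L and M and at 61.8, 56 and 37.7 CPM in that of H, I and K, a log2 difference of 0.94 (SE 0.33, adjusted p = 0.332). Here too M overlapped the EYFP animals. The vesicle glycoprotein Sv2b was lower in tau IP, at 40.4, 48.5, 43.9 and 47.4 CPM against 60.8, 70.9 and 71.7, without overlap (-0.49, SE 0.14, adjusted p = 0.318). Sv2a was lower as well, at 205, 323, 305 and 315 CPM against 410, 446 and 394 (-0.44, SE 0.15, adjusted p = 0.334). Vamp2 and Syt5 were the other members above 0 at an unadjusted p under 0.05 (0.77 and 0.90, adjusted p = 0.342 and 0.392), and Unc13a and Pclo the others below 0 (-0.82 and -0.67, adjusted p = 0.387 and 0.4). The groups also did not overlap for Unc13a and Syn3, which were lower. Over the 40 members the differences had a median of -0.13, against -0.08 over all genes.

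Whether anything passed depended on the setting. The Wald test of DESeq2 called 4 members among 411 genes (Rab3b at an adjusted p of 0.000403, Syt17 at 0.0328, Stx1a at 0.0479 and Sv2b at 0.0487). Rab3b and Syt17 also passed with no filter on low counts (adjusted p = 0.0136 and 0.0278), with all 14 libraries in a single fit (0.0314 and 0.0438) and without animal M (log2 differences 2.12 and 2.46, adjusted p = 0.012 and 0.0116). Leaving out any other animal, or using voom, called none. The library numbers fall into a range up to 11 (B, C, H and I) and a range from 17 (K, L and M), and within these ranges the tau minus EYFP difference in IP was 2.13 and 0.91 for Rab3b, 2.34 and 1.11 for Syt17, 0.95 and 0.77 for Stx1a, 0.86 and 0.39 for Vamp2, and -1.71 and -0.22 for Unc13a. Each kept its sign within both ranges. These genes were picked for their differences in the same 7 IP libraries, so the kept sign is no separate support. The upper range holds a single EYFP animal, K, and there Syt17 was at 162 CPM in L, 40.1 in M and 37.4 in K.

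Other measures moved with treatment in the same IP libraries. The 12 noradrenergic markers summed to 1070 to 7168 CPM in tau IP and 564 to 642 CPM in EYFP IP, against 409 to 481 CPM in all pre-IP, and all 12 were higher in tau IP at an unadjusted p under 0.05 with none past adjustment. Dbh, which makes noradrenaline, was at 1292, 912, 700 and 128 CPM in B, C, L and M and at 36.4, 29.2 and 56.1 CPM in H, I and K. The summed levels of markers of other cells lay below those of EYFP IP without overlap for 3 lists, and the ranges overlapped for the other 6. The 3 glutamatergic markers summed to 130 to 242 CPM against 310 to 363, the 4 GABA and glycine markers to 186 to 336 against 388 to 462, and the 6 microglial markers to 81.5 to 145 against 151 to 179. With overlap, the 6 astrocyte markers summed to 408 to 895 against 843 to 1111, the 6 oligodendrocyte markers to 3634 to 10300 against 8822 to 13120, the 5 vascular markers to 14.3 to 29.4 against 22.3 to 34.2, the 5 cerebellar markers to 84.6 to 223 against 146 to 233, the 3 serotonergic markers to 18.4 to 70.1 against 46.6 to 124 and the 3 cholinergic markers to 20.2 to 57.4 against 45.7 to 74.4. No marker in these lists was at 0 in all libraries. RNA concentration, given above, ran from 0.1 to 0.8 ng/µl in tau IP and from 0.7 to 2.8 ng/µl in EYFP IP, which overlap. The part of these in the member values was not tested.

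In the pre-IP, tau and EYFP animals were compared as the background for the IP. No member passed, 0% of 19197 genes did, and no member had an unadjusted p under 0.05, where 2.84% of genes had. DESeq2 and voom also called no member here. The differences ran from -0.48 to 0.23 on the log2 scale with a median of 0.0081. Syn2 had the smallest p, at 99.4, 166, 184 and 105 CPM in B, C, L and M and 160, 161 and 259 CPM in H, I and K (-0.48, SE 0.25, unadjusted p = 0.0766). Syt9 followed at 43.8, 66.6, 58.2 and 28.4 CPM against 85.1, 74.4 and 44.3 (-0.44, SE 0.26, unadjusted p = 0.112). The groups overlapped for both. Rab3b, which stood apart in the IP, was at 91.2, 94.5, 108 and 102 CPM in tau pre-IP and 70.9, 92.2 and 99.9 CPM in EYFP pre-IP, a difference of 0.18 (SE 0.16, unadjusted p = 0.264).

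The range of library numbers separated the pre-IP levels of some members more than treatment did. K, L and M (numbers from 17) did not overlap B, C, H and I (numbers up to 11) for 8 members that were higher and 8 that were lower, and 21.2% of all genes did not overlap either, so these shares are set beside each other without a test. Syt1 stood at 151 to 178 CPM in the upper range and at 244 to 285 CPM in the lower, and Rims2 at 30 to 35.1 and 49.2 to 50.6 CPM. Syt2 went the other way, at 230 to 415 CPM in the upper range and 168 to 206 CPM in the lower, as did Vamp1, at 2372 to 2914 and 1805 to 2011 CPM. The labels do not say what the numbers stand for, and both ranges hold tau and EYFP animals. With the range as a covariate, 9 members were higher in IP and 13 lower, given here without the shares of all genes.

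The interaction of treatment and fraction tests whether the IP over pre-IP change itself differed between tau and EYFP animals. No member and 0% of 20495 genes passed. At an unadjusted p under 0.05 there were 5 members, where 5.97% of genes were. Syt17 had a difference of 2.30 (SE 0.61, unadjusted p = 0.00176, adjusted p = 0.53), Rab3b of 1.68 (SE 0.47, unadjusted p = 0.00269, adjusted p = 0.598) and Stx1a of 0.92 (SE 0.38, adjusted p = 0.82), with Vamp2 at 0.80 and Sv2a at -0.58. Syt17 and Rab3b passed without animal M (2.52 and 1.93, adjusted p = 0.00839 and 0.0238) and with no filter on low counts (2.27 and 1.64, adjusted p = 0.0067 and 0.028). With the animal as a block no member passed, and the adjusted p of both was 0.531. DESeq2 called 52 genes and no member.

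The rest of the pathway was read from lists of related genes. In IP against pre-IP, where 14.5% of all genes rose and 13.6% fell, 1 of 14 further vesicle genes rose and 5 fell, 2 of 16 tested genes of the fusion machinery rose and 5 fell, 3 of 12 further active zone genes rose and 3 fell, and 5 of 15 endocytosis genes rose and 4 fell. The largest rises were in Rab27b, a Rab GTPase of secretory vesicles (1.15, adjusted p = 0.00229), Cask, a scaffold of the presynaptic membrane (0.94, adjusted p = 0.000581), and Ppfia2, a liprin-α of the active zone (0.90, adjusted p = 0.0064). Rab27b ran from 13 to 27.3 CPM in pre-IP and from 27.5 to 73.1 in IP, without overlap. Falls included Sh3gl1, an endophilin (-0.68, adjusted p = 0.000231), and Ppfia3, another liprin-α (-0.66, adjusted p = 0.000646). Sh3gl1 ran from 62.4 to 71.2 CPM in pre-IP and from 26 to 56.2 in IP, without overlap. None of the genes in these 4 lists passed in either comparison of tau with EYFP or in the interaction.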

How the data were processed

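The authors deposited raw counts, whole numbers per gene in each library with no scaling, per the file headers. FastQC, Trim Galore, STAR and featureCounts and the builds GRCm38 and mm10 are named in the submitters' processing notes, while settings, strand use and the handling of multiply mapped reads are not given in the sources used here. A deposited sample sheet gave the RNA integrity score and RNA concentration, and a deposited gene table gave symbols and exon lengths in bases. Symbols for 3669 further genes came from GENCODE M21.

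CPM (counts per 1e+06 counts of a library) was computed from library totals, per kb of the deposited exon length for levels between genes, and log2 IP over pre-IP per animal with a prior count of 2. Tests used edgeR 4.0.16 in R 4.3.3 (filterByExpr, TMM, quasi-likelihood F test), with Benjamini-Hochberg adjustment over all genes and a threshold of 0.05. IP against pre-IP and the interaction used 14 libraries, and each treatment comparison used the 7 of its fraction. All 40 members passed the filter in each. On simulated counts the fits recovered most changed genes. The planted changes were larger than the fitted changes of all members, except Syt17 in tau IP against EYFP IP and in the interaction. Recovery of smaller changes was not tested. DESeq2 1.42.0 and limma 3.58.1 (voom) gave other settings. The labels' animal letters pair the fractions of an animal, and deviations from group means correlated at 0.148 to 0.358 over 7 animals. Replicates of a group differed beyond counting noise (lowest chi-square per degree of freedom 24.56). Animals are separate mice, so p-values of tau against EYFP within a fraction measure spread between them. The main fits of IP against pre-IP and of the interaction hold both libraries of each animal without an animal term. Their p-values therefore mix spread between and within animals, and the fit with the animal as a block is the paired alternative.

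Members and lists were chosen with earlier results of these data known. Values were given for 13 core members, for up to 6 called members in each direction, for the smallest p-values in each treatment comparison, and for the 3 largest changes each way among called genes of the related lists, 1 of which is not reported here. Members named beyond these (among them Rims2, Syt5, Syt12 and Syt13) were chosen after their values were seen. Vamp7 was not matched.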

Additional observations from a re-analysis of the deposited data

Results flagged for a closer look

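In the 80 groups of 4 tau libraries checked (40 members in each fraction), 6 had a library far from the other 3, and chance alone puts about 1 group in 20 there. Sv2a was at 204.6 CPM in the IP of animal B, below 305 to 322.7 CPM in the other tau IP libraries, and at 572.6 CPM in the pre-IP of animal M, above 459.5 to 461.8 CPM in the others. Animal M also stood apart in its IP for Rims3 (219.9 CPM against 261.5 to 267.5) and in its pre-IP for Syt2 (391.5 CPM against 204.3 to 230.1) and Syt10 (0.7898 CPM against 1.297 to 1.365). Sv2b was at 52.05 CPM in the pre-IP of animal L, below 76.07 to 78.55 CPM. M is the animal whose sex label and Y-linked counts disagree, and whether the 2 are linked was not tested.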

How the results depend on the processing

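In IP against pre-IP, 20 members and 5755 genes were called, and in EYFP animals alone 6 members and 1218 genes. Leaving out 1 animal gave 14 to 22 members and 4194 to 5877 genes, and no other setting moved the count of members by more than 1.5 times. Syp had log2 changes of -0.084 to 0.0963 without 1 animal and -0.0385 in tau animals alone, Vamp2 of -0.234 to 0.0864 and 0.3056, and Stx1a -0.1524 in EYFP animals alone, so their directions are not settled. With the replicate block, 23 members and 6076 genes were called, which added Snap25, Syt1 and Rab3d and changed no other call of a member. For tau IP against EYFP IP, where no gene was called, the DESeq2 Wald test called 411 genes with 4 members, no filter on low counts 113 with 2, all 14 libraries in 1 fit 202 with 2, and leaving out 1 animal 0 to 128 genes with 0 to 2 members, the highest without M. In pre-IP, no filter called 44 genes and leaving out 1 animal 0 to 1, with 0 members. For the interaction, the DESeq2 Wald test called 52 genes, no filter 67 with 2 members, and leaving out 1 animal 0 to 56 genes with 0 to 2 members. The causes were not tested. Treatments share no animal, so no replicate block exists for tau against EYFP. With 3 and 4 animals, and IP RNA down to 0.1 ng/µl, a change that misses the threshold is not shown to be absent. The floor of 3 counts covers counting error only.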

Other observations

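Genes of dense-core vesicles, which store amines and also peptides such as noradrenaline's co-transmitter galanin, were read from a list of 13. In IP against pre-IP, 5 rose and 2 fell at an adjusted p under 0.05 by edgeR, where 14.5% of all genes rose and 13.6% fell, and the median log2 change was 0.27, against -0.0022 for all genes. Pcsk1, a prohormone convertase, rose by 0.66 (SE 0.22, adjusted p = 0.0346), Cadps, the priming factor of dense-core vesicles, by 0.58 (SE 0.09, adjusted p = 0.000369), Chgb, a granin, by 0.58 (SE 0.15, adjusted p = 0.00827), Scg3 by 0.55 (SE 0.12, adjusted p = 0.00246) and Scg5 by 0.27 (SE 0.10, adjusted p = 0.0466). The fractions did not overlap for Cadps and Scg3. Vgf and Ptprn2 fell by 0.53 and 0.52 on the log2 scale (adjusted p = 0.0266 and 0.0384). In tau IP against EYFP IP no gene of the list passed, and Vgf had the smallest p, with a log2 difference of -0.66 (SE 0.16, unadjusted p = 0.00219, adjusted p = 0.318) and no overlap between the groups.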
